A study of Rattus norvegicus with 6 samples.

Results

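The genes described here are 10 members of the epidermal growth factor (EGF) system, chosen by name out of the 32161 genes of the deposited count table. They are the ligand genes Hbegf, Areg, Ereg, Tgfa, Btc and Nrg1, the receptor genes Egfr, Erbb2 and Erbb3, and Errfi1, which encodes an inhibitor of the receptors. The libraries are from rat primary cells, taken from the layer of joint cartilage that lies next to the synovial fluid. In one group, called shear here, the cells had been put under a fluid shear stress of 20 dyne/cm² (n = 3 libraries). In the other, called static, it was 0 dyne/cm² (n = 3). Shear stress is the drag of a moving fluid on the cell surface. The labels give no strain, age, passage, time under flow or origin of the replicates, so the p-values rest on a spread between libraries that may be technical.

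EGF-family ligands are made as membrane proteins and are cut from the cell surface by ADAM proteases. They bind receptors of the ERBB family, which pair up, phosphorylate each other and pass the signal to the RAS-ERK and PI3K-AKT relays. Ligands differ in the receptor they bind: amphiregulin and TGF-alpha bind EGFR, HB-EGF, epiregulin and betacellulin bind EGFR and ERBB4, and neuregulins bind ERBB3 and ERBB4. ERBB2 has no known ligand and serves as a partner of the others. Errfi1, also called Mig-6, is transcribed in response to EGFR signalling and blocks the receptor's kinase. In mice, EGFR signalling maintains the superficial layer of articular cartilage, and loss of Errfi1 leads to joint degeneration.

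Library totals were 33342775 to 33979479 counts in shear and 33665772 to 33934804 in static libraries, and 13945 genes passed the filter on low counts. Markers of the labelled cells were present in part, and some moved with the groups, where 18.5% of all genes tested were called at an adjusted p under 0.05. Of 7 superficial zone markers, 5 were tested, of which 3 rose and 0 fell, while Vit had 0 to 2 and Erg 2 to 4 counts per library. The lubricin gene Prg4 had 22.4 CPM (counts scaled to the size of the library) in shear and 18.8 CPM in static libraries (log2 fold change 0.25), and Abi3bp (0.41) and Thbs4 (0.17) also rose. Of 8 chondrocyte markers, 5 were tested. Sox9 rose (1.26), the aggrecan gene Acan fell (-0.34), and Col11a2 had 340 to 424 counts per library and did not pass, while Col2a1 had 4 to 8 and Hapln1 and Col9a1 0 to 2 counts. Of 6 fibroblast markers Dcn (0.17) and Lum (0.32) rose and Pdgfra fell (-0.20), and Col1a1 and Col3a1 had 149757 to 234800 counts each. Some of these calls ended when 1 library was left out: Prg4 without shear replicate 3 or static replicate 1 or 3, Thbs4 without any 1 shear replicate or static replicate 3, Pdgfra without shear replicate 2 or 3 or static replicate 1 or 3, and Dcn without shear replicate 2 or static replicate 1. The calls of Prg4, Thbs4 and Dcn also ended under scaling by library totals, and that of Thbs4 under upper-quartile factors. The summed level was 201 to 204 CPM in shear and 177 to 186 CPM in static libraries for the superficial zone list, and 38.6 to 40.8 CPM in shear and 31.6 to 33.8 CPM in static libraries for the chondrocyte list. That of the fibroblast list was 12960 to 13900 CPM in shear and 12080 to 12620 CPM in static libraries. The chondrocyte sum mixes genes that moved in opposite directions. Sox9 had 15.6 CPM in shear and 6.54 CPM in static libraries, and Acan 11.3 CPM in shear and 14.2 CPM in static libraries. Col11a2, which did not pass, had 11.6 CPM in shear and 10.3 CPM in static libraries. The endothelial genes Cdh5 and Tie1 and the Schwann cell gene Cdh19 had 0 to 2 counts per library, and the leukocyte gene C1qa and the endothelial gene Emcn had 0 in every library. Other markers of these types were detected. Per library, the leukocyte gene Cd14 had 176 to 226 counts, the endothelial gene Tek 72 to 124 and the Schwann cell gene S100b 76 to 100. The epithelial gene Krt14 had 70 to 93 counts. The 6 endothelial markers summed to 5.24 to 9.22 CPM in shear and 9.85 to 11.8 CPM in static libraries, and of 3 tested Kdr fell (log2 fold change -0.98). The 6 skeletal muscle markers summed to 19.8 to 21.3 CPM in shear and 24.0 to 25.5 CPM in static libraries, and of 5 tested Acta1, Mylpf and Tnnt3 fell. Acta1 had 28 to 100 counts per library and Mylpf 15 to 82. Myh4, the most abundant of the muscle markers, had 13.9 CPM in shear and 13.0 CPM in static libraries. It did not pass the test (log2 fold change 0.10), and its shear libraries all lay above the static ones. Of the leukocyte, epithelial and Schwann cell markers no tested gene was called. The leukocyte list summed to 7.93 to 9.20 CPM in shear and 7.98 to 9.44 CPM in static libraries. For the epithelial list the sum was 5.30 to 6.43 CPM in shear and 4.37 to 5.63 CPM in static libraries. For the Schwann cell list it was 2.54 to 3.30 CPM in shear and 2.51 to 3.48 CPM in static libraries. Whether these cell types have a part in the results below was not tested. In cultures of mixed cells, fewer cells of a type and less RNA per cell cannot be told apart.

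Of the 10 members, 3 rose under shear: the ligand genes Hbegf and Areg and the inhibitor gene Errfi1. None fell. Among all genes tested, 18.5% were called at an adjusted p under 0.05, 10.8% of all being higher and 7.71% lower (edgeR quasi-likelihood test, Benjamini-Hochberg adjustment over all genes tested). Another 5 members, Ereg, Tgfa, Nrg1, Egfr and Erbb2, did not pass the test, and Btc and Erbb3 had too few counts to be tested. Of the 8 members that passed the count filter, 3 were thus called.

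Hbegf encodes heparin-binding EGF-like growth factor (chromosome 18, 29329764 to 29340403, minus strand, 6 exons, in the coordinates of the count table, whose build is not given in the sources used here). Its level was 502, 537 and 501 CPM in the shear libraries, against 285, 279.8 and 291 CPM in the static libraries. Every shear library lay far above every static one. The mean was 513 ± 20 CPM in shear and 285 ± 6 CPM in static libraries (SD, n = 3 each), a ratio of 1.80. The log2 fold change was 0.85 ± 0.05 (SE, edgeR adjusted p = 9.7e-13), with a 95% interval from 0.75 to 0.94. By p-value Hbegf ranked 23 among the 13945 genes tested.

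Areg encodes amphiregulin (chromosome 14, 18521930 to 18531179, minus strand, 6 exons, same coordinates). It had 25.7, 25.9 and 27.1 CPM in the shear libraries, against 16.3, 16.3 and 14.2 CPM in the static libraries. The groups did not overlap, which was so for 32.7% of all genes tested. The mean was 26.2 ± 0.8 CPM in shear and 15.6 ± 1.2 CPM in static libraries (SD, n = 3 each). The log2 fold change of Areg was 0.75 ± 0.07 (SE, edgeR adjusted p = 4.1e-08), with a 95% interval from 0.60 to 0.91.

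Errfi1 (chromosome 5, 167952728 to 167966009, plus strand, 4 exons, same coordinates) had 66.4, 61.9 and 65.1 CPM in the shear libraries, against 35.6, 35.8 and 36.5 CPM in the static libraries. The static libraries lay within 1 CPM of each other and well below the shear libraries. The mean was 64.5 ± 2.3 CPM in shear and 36.0 ± 0.5 CPM in static libraries (SD, n = 3 each). The log2 fold change of Errfi1 was 0.84 ± 0.06 (SE, edgeR adjusted p = 2.6e-11), with a 95% interval from 0.73 to 0.96. The intervals of Hbegf, Areg and Errfi1 overlap one another, and these data do not order the sizes of the rises.

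**Figure D1:**
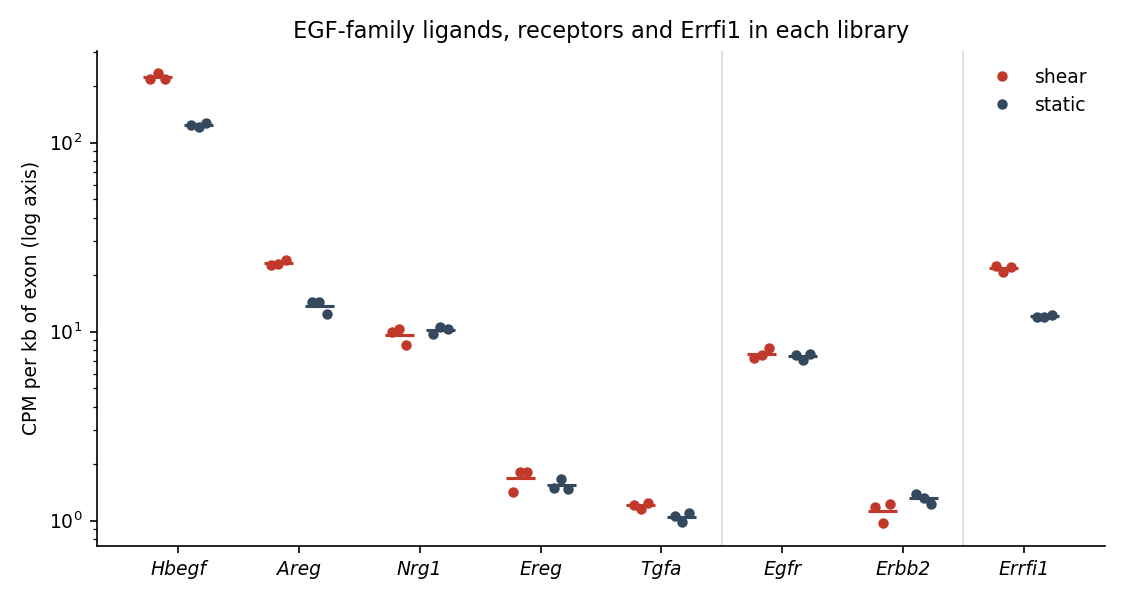
CPM per kilobase of exon (log axis) of the 8 members with enough counts, for shear (red, left) and static (dark, right) libraries; each point is 1 library and each bar the mean of 3. Hbegf stands at 217 to 233 in shear and 121 to 126 in static libraries, above all other members. Hbegf, Areg and Errfi1 are higher in every shear than in every static library, as is Tgfa by a small margin. Erbb2 is lower in every shear library, by a very small margin. Groups lay apart, in either direction, for 32.7% of all genes tested.

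The stretches before the annotated start sites of the genes that rose are shown because all of them hold the core of the cAMP response element (CRE). The CRE is a DNA word bound by factors of the CREB and ATF family. Its core is a short word found in 21.2% of all promoters, and it was chosen for display with the changes of the genes known. Sequences are from RefSeq promoters of build GRCr8, 250 bases before to 50 after each annotated gene start, printed 5′ to 3′ on the gene's strand. In capitals are CRE sites (the full word TGACGTCA, or its core TGACG, which reads CGTCA where it lies on the other strand) and the TATA word TATAAA. The Areg stretch is chr14:17265642-17265791 (minus strand), that of Errfi1 is chr5:166606691-166606840 (plus strand), each the 150 bases before the start, and that of Hbegf is chr18:28390396-28390425 (minus strand), 205 to 176 bases before the start.
Areg: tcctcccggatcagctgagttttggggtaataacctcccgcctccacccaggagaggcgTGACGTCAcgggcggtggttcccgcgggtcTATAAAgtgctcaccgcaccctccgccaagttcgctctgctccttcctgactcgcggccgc
Errfi1: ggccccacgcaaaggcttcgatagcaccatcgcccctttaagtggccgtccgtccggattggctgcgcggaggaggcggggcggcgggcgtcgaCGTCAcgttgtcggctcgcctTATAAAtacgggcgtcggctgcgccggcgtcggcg
Hbegf: ggctgattggccTGACGgaccttcaagggc

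Of the 10 members, 7 had a promoter in the RefSeq table, and Ereg, Nrg1 and Erbb3 were not matched. The full CRE word was found in Areg alone among the 7, starting 91 bases before the gene start, and it contains the core on both strands. It occurred in 1.83% of the 33469 promoters of the same length. The core was found in Hbegf, Areg and Errfi1 and in 21.2% of all promoters, both strands searched. The TATA word, searched on the gene's strand only, was found in Areg and Errfi1 and in 8.80% of all promoters, and the TEAD word GGAATG in Erbb2 and in 14.2% of all promoters. The AP-1 word TGANTCA, the EGR word GCGTGGGCG and the SRF CArG box were in none of the 7 windows, against 7.33%, 0.544% and 1.64% of all promoters. These matches describe letters in a window and were looked at with the changes of the genes known.

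Ereg and Tgfa, the other EGFR ligand genes with enough counts to be tested, did not pass the test. Ereg, which encodes epiregulin, had 2.98, 3.80 and 3.81 CPM in the shear libraries, against 3.11, 3.48 and 3.09 CPM in the static libraries, and the groups overlapped. Its log2 fold change was 0.13 ± 0.16 (SE, edgeR adjusted p = 0.64), with a 95% interval from -0.20 to 0.46. Tgfa, which encodes TGF-alpha, had 5.45, 5.21 and 5.59 CPM in the shear libraries, against 4.75, 4.40 and 4.94 CPM in the static libraries. The shear libraries of Tgfa all lay above the static ones, but by little. The log2 fold change of Tgfa was 0.21 ± 0.12 (SE, edgeR adjusted p = 0.29), with a 95% interval from -0.05 to 0.46. Both intervals lie below the lower bound of Hbegf's interval, and they include no change.

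Areg and Ereg are neighbours on chromosome 14, in one row with Btc and with Epgn, the epigen gene. In the table's coordinates Btc, Areg, Ereg and Epgn follow each other within 402 kb, with 249 kb between Btc and Areg, 45.2 kb between Areg and Ereg and 35.2 kb between Ereg and Epgn. The 1 other gene listed in that span is annotated as a 5S ribosomal RNA gene. Per kilobase of exon, Areg exceeded Ereg 15.9, 12.5 and 13.1 times in the shear libraries, against 9.64, 8.65 and 8.43 times in the static libraries. The ratio was higher in every shear library, and the exact two-sided permutation test of its log2 gave p = 0.1, the smallest that 3 against 3 libraries can give. Betacellulin, the product of Btc, was at the edge of detection, with 0, 0 and 2 counts in the shear libraries, against 6, 0 and 6 counts in the static libraries. Epgn had 4, 2 and 0 counts in the shear libraries, against 10, 2 and 2 counts in the static libraries. No fold is given for Btc or Epgn, since a count of 0 allows up to 3 counts (0.0883 to 0.09 CPM per library, counting error only). That bound takes counts as independent of one another. It may be too low, since 71.4% to 72.2% of the counts between 1 and 20 in a library were even.

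Neuregulin 1, the product of Nrg1, differs from the other member ligands in that it binds ERBB3 and ERBB4 but not EGFR. Nrg1 was the most abundant ligand gene after Hbegf and Areg per kilobase of exon. It had 52.6, 54.7 and 45.1 CPM in the shear libraries, against 51.2, 56.0 and 54.5 CPM in the static libraries. The groups overlapped, with shear replicate 3 the lowest library. The log2 fold change was -0.09 ± 0.06 (SE, edgeR adjusted p = 0.41), with a 95% interval from -0.22 to 0.05. Its own receptor genes were at the edge of detection: Erbb3 had 4, 0 and 2 counts in the shear libraries, against 6, 0 and 0 counts in the static libraries, and Erbb4 had 0 to 2 counts per library. Nrg3 had 0 counts in each library, Nrg4 had 3 to 13 and Nrg2 3 to 12. Of these, Nrg2 passed the count filter and was not called (edgeR adjusted p = 0.999). Egf itself was not analysed here.

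Among the receptor genes, Egfr was the most abundant per kilobase of exon. It had 30.0, 31.3 and 34.2 CPM in the shear libraries, against 31.4, 29.6 and 31.5 CPM in the static libraries, with the groups overlapping. Its log2 fold change was 0.05 ± 0.06 (SE, edgeR adjusted p = 0.70), with a 95% interval from -0.09 to 0.18. Egfr's interval reaches neither the rise of its ligands Hbegf and Areg nor that of Errfi1. Erbb2 had 5.57, 4.60 and 5.80 CPM in the shear libraries, against 6.54, 6.29 and 5.80 CPM in the static libraries. The shear libraries of Erbb2 all lay below the static ones, though shear replicate 3 and static replicate 3 nearly touched. The log2 fold change of Erbb2 was -0.22 ± 0.12 (SE, edgeR adjusted p = 0.25), with a 95% interval from -0.48 to 0.03.

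**Figure D2:**
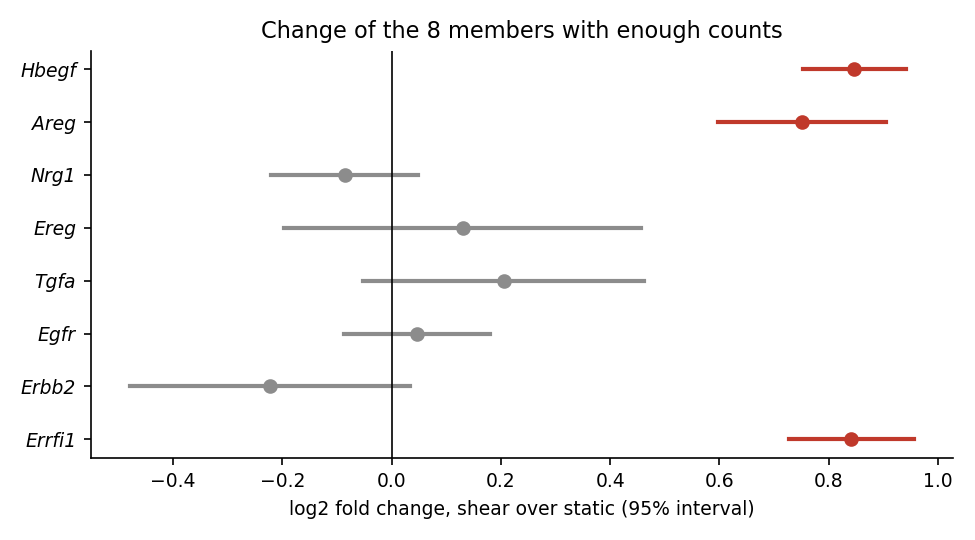
Log2 fold change, shear over static, of the 8 tested members (x axis), with points for the estimate and bars for its 95% interval; red marks an adjusted p under 0.05 and grey the rest. Hbegf, Areg and Errfi1 lie between 0.75 and 0.85, and the intervals of the other 5 members include 0.

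Per kilobase of exon, the order of the members in shear libraries was Hbegf (223 CPM per kb), Areg (23.0), Errfi1 (21.6), Nrg1 (9.60), Egfr (7.66), Ereg (1.68), Tgfa (1.20) and Erbb2 (1.12). Tgfa and Erbb2 overlapped between libraries, and the other neighbours in this order did not. In static libraries the order was Hbegf (124 CPM per kb), Areg (13.7), Errfi1 (12.1), Nrg1 (10.2), Egfr (7.41), Ereg (1.54), Erbb2 (1.31) and Tgfa (1.04), with no overlap between neighbours. Hbegf lay above 96.1% of all genes tested on this scale, Egfr above 56.4% and Tgfa above 22.3%. On the scale of CPM per kb, Hbegf made up 86.0% to 86.6% of the sum of the 6 ligand genes in shear libraries and 81.5% to 83.3% in static libraries. That sum was 258 ± 9 CPM per kb in shear and 150.2 ± 1.4 CPM per kb in static libraries (SD, n = 3 each). The sum of the 3 receptor genes was 8.79 ± 0.58 CPM per kb in shear and 8.73 ± 0.27 CPM per kb in static libraries (SD, n = 3 each). Egfr held 85.8% to 88.6% of the receptor sum in shear and 84.3% to 86.1% in static libraries. Hbegf exceeded Egfr 26.4 to 30.9 times per kb in shear libraries and 16.4 to 17.1 times in static libraries, and Errfi1 exceeded Egfr 2.65 to 3.09 times in shear and 1.58 to 1.69 times in static libraries. These ratios compare transcripts, and neither protein nor shed ligand was measured. None of the members' exons overlapped an exon of another gene in the table.

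**Figure D3:**
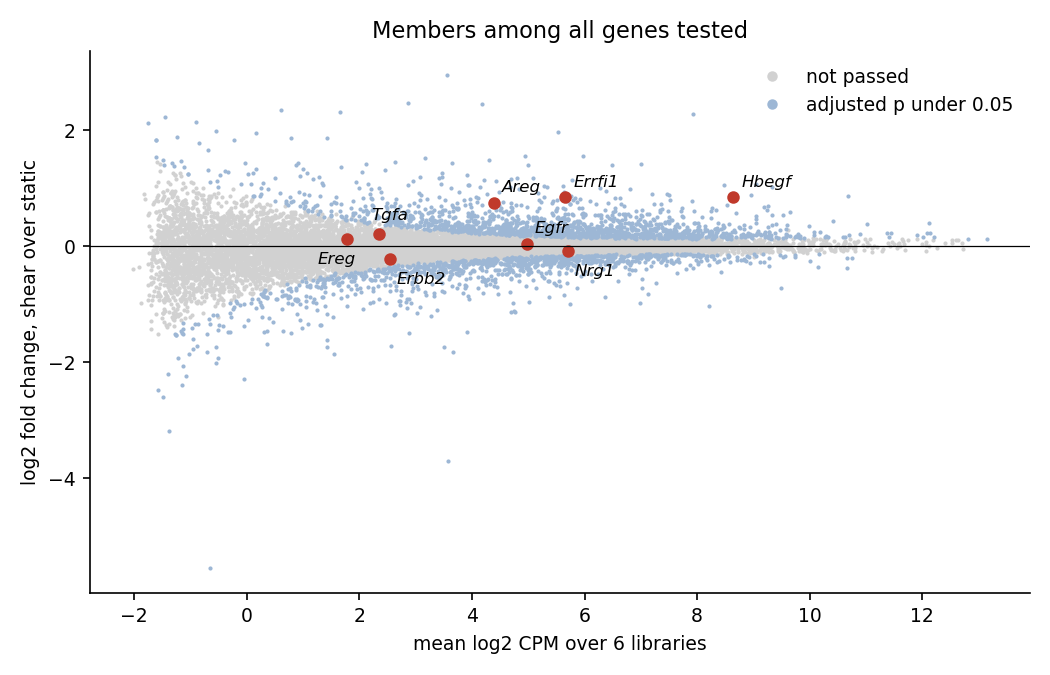
Mean log2 CPM over the 6 libraries (x axis) against the log2 fold change, shear over static (y axis), for the 13945 genes tested; blue points have an adjusted p under 0.05, grey points do not, and red points are the 8 tested members. Hbegf lies at a mean log2 CPM of 8.64, and Ereg, Tgfa, Erbb2, Egfr and Nrg1 lie in the grey band.

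The genes with the most similar profile over the 6 libraries were taken by the distance between log2 CPM values centred on each gene's mean. Candidates were 9961 tested genes with a mean log2 CPM of 1 or more. Members and placeholder symbols (starting with LOC, RGD or AABR) were left out. Nearest to Hbegf were Flrt2, which encodes a membrane protein of the FLRT family (distance 0.065), Slc23a2, which encodes a vitamin C transporter (0.076), and the sterol regulator gene Insig1 (0.084). Errfi1 lay at 0.15 from Hbegf and would have ranked 13 in that list, and Areg lay at 0.26 and would have ranked 65. Nearest to Errfi1 were the kinase gene Stk40 (distance 0.055) and the haem oxygenase gene Hmox1 (0.078). Nearest to Egfr were Msn, which encodes the membrane-cytoskeleton linker moesin, Lsg1 and Ist1, at distances from 0.041 to 0.054. With 3 libraries a group, such a profile is mostly the size of the change and the spread of single libraries.

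Around the members, genes of ligand shedding and processing were called about as often as genes at large. In all 11 could be tested; 2 rose and 0 fell (18.2% called, against 18.5% of all genes tested), and their median log2 fold change was 0.02, against -0.01 over all genes tested. Timp3, which encodes an inhibitor of ADAM and matrix metalloproteinases, rose to 5.23 CPM in shear, against 2.60 CPM in static libraries (log2 fold change 1.01 ± 0.16, SE, edgeR adjusted p = 3.3e-05). Furin, whose product cuts proproteins, rose by 0.22 (edgeR adjusted p = 0.0073). Adam17, which encodes the main sheddase of HB-EGF and amphiregulin, had a log2 fold change of 0.06 (edgeR adjusted p = 0.38), and Adam10 one of -0.10 (edgeR adjusted p = 0.22). Both were named after their values were seen.

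Of the 20 genes of receptor adaptors and the RAS-ERK relay, 7 rose and 3 fell, where 10.8% of all genes tested rose and 7.71% fell. The median log2 fold change was 0.04. Rasa1, whose product switches RAS off, rose to 148 CPM in shear, against 107 CPM in static libraries (log2 fold change 0.47 ± 0.05, SE, edgeR adjusted p = 2.6e-07). The exchange factor genes Sos1 and Sos2, whose products switch RAS on, went opposite ways, with log2 fold changes of -0.26 and 0.39. The scaffold gene Ksr1 (-1.41, at 29 to 118 counts) also fell, and was picked for naming once its value was known. The count of rises was 4 without shear replicate 1, and also 4 with unscaled library totals.

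Of the 15 genes of the PI3K-AKT relay, 1 rose and 2 fell. The share called, 20.0%, is close to the 18.5% of all genes tested, and the median log2 fold change was 0.00. Pik3ca, which encodes a catalytic subunit of the kinase, rose to 54.9 CPM in shear, against 35.6 CPM in static libraries (log2 fold change 0.62 ± 0.06, SE, edgeR adjusted p = 3.8e-08). The regulatory subunit genes Pik3r3 and Pik3r1 fell by 0.60 and 0.21 on the log2 scale. The fall of Pik3r1 lost its call without shear replicate 2, shear replicate 3 or static replicate 1. The count of falls was 1 without shear replicate 3 or static replicate 1, 4 with upper-quartile factors and 5 with unscaled library totals. The count of rises was 2 without static replicate 2.

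Of the 25 genes of receptor turnover and inhibition, 7 rose and 1 fell, where 10.8% of all genes tested rose and 7.71% fell. The share called was 32.0%, and the median log2 fold change was 0.00. Ptpn12, which encodes a tyrosine phosphatase, rose to 222 CPM in shear, against 175 CPM in static libraries (log2 fold change 0.34 ± 0.05, SE, edgeR adjusted p = 8.3e-06). Cblb, which encodes a ubiquitin ligase of the CBL family that marks receptors for degradation, rose by 0.31, and the phosphatase gene Ptpn2 rose by 0.28. Sh3kbp1, which encodes a CBL-binding adaptor of receptor uptake, fell by 0.27. Its call, and so the count of falls, ended without shear replicate 3 or static replicate 1. The call of Sh3kbp1 also ended without shear replicate 1, and without static replicate 3 there were 2 falls. None of these rises was as large as that of Errfi1.

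Of 25 transcripts listed as responding to ERK signalling, 23 could be tested, as Ier2 and Mcl1 were not found by name. Of these 23, 13 rose and 1 fell, where 10.8% of all genes tested rose and 7.71% fell. Their median log2 fold change was 0.37. Among those with a mean log2 CPM of 1 or more, the largest rises were those of the transcription factor genes Egr2 (2.46), Egr1 (1.97) and Junb (1.41) and the ERK phosphatase gene Dusp5, which rose to 46.2 CPM in shear, against 17.4 CPM in static libraries (log2 fold change 1.41 ± 0.06, SE, edgeR adjusted p = 2.2e-14). Etv1 fell (-0.71) and was named after its value was seen. Its call, and so the count of falls, ended without shear replicate 2, static replicate 1 or static replicate 2. The other 9 tested genes of the list, Fos, Dusp4, Spry1, Spred2, Etv4, Etv5, Plaur, Ccnd1 and Srf, did not pass the test. Like the other lists, this one was chosen with earlier results of these data known.

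**Figure D4:**
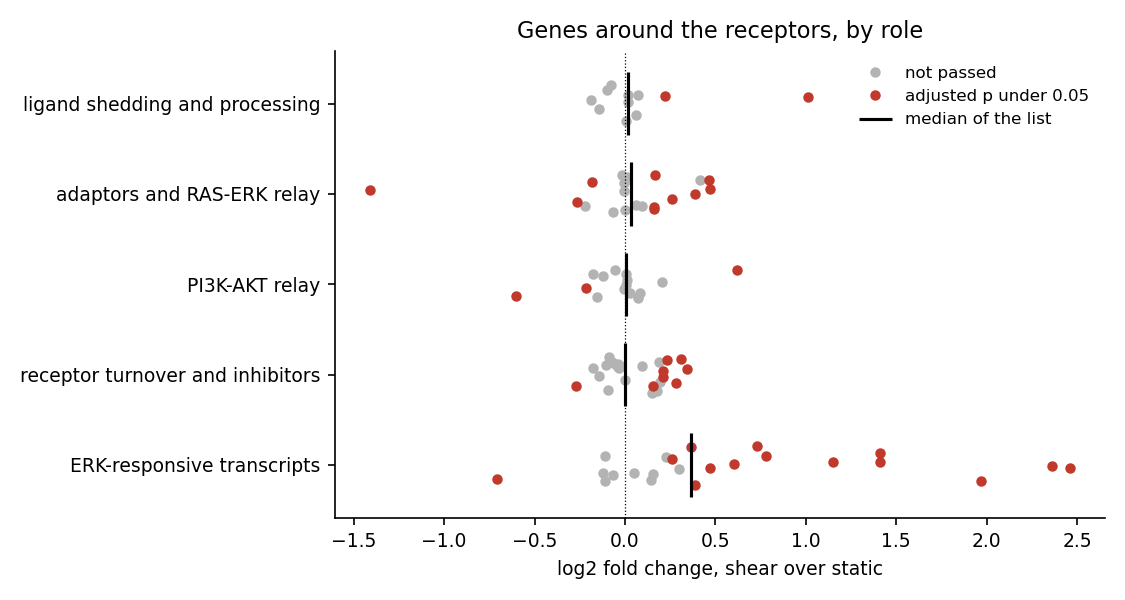
Log2 fold change, shear over static (x axis), of each tested gene in 5 lists of the pathway; red points have an adjusted p under 0.05, grey points do not, and the black bar is the median of the list. The medians of the first 4 lists lie between 0.00 and 0.04, and that of the ERK-responsive transcripts at 0.37.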

How the data were processed

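Per the submitters' processing notes, Trimmomatic 0.36, the Subread 1.5.1 package with featureCounts, and edgeR 3.12.1 were used. The authors deposited whole-number counts per gene and library, with exon positions and summed exon length, per the file headers; libraries were stranded mRNA, per the labels' protocols. Aligner, genome build, annotation, strand setting and treatment of read pairs were not given in the sources used here. Columns were matched to libraries by the names that the labels repeat.

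Counts were filtered (filterByExpr, minimum count 10), scaled with TMM factors (0.979 to 0.989 in shear, 1.006 to 1.026 in static libraries) and tested with the two-sided quasi-likelihood test of edgeR 4.0.16 in R 4.3.3, without covariates. P-values were adjusted over all 13945 genes that passed the filter (Benjamini-Hochberg), and genes under 0.05 were called. CPM uses the TMM-scaled totals, and CPM per kb divides it by the summed exon length. The SE was obtained by dividing the size of the log2 fold change by the root of F. The test was checked on simulated counts with the same spread for every gene. It found 75.5% of the 1.5-fold and 92.8% of the 2-fold changes put in, and called 9 unchanged genes. Replicates differed by more than sampling noise (chi-square over degrees of freedom 5.32 to 7.75).

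Members and lists were chosen with earlier results of these data known. Text names all members, the other ligand and receptor genes, up to 4 called genes of each list (mean log2 CPM 1 or more), and the 3 nearest profiles of Hbegf, Egfr and Errfi1. Alternatives were other scalings and filters, DESeq2 1.42.0, limma-voom (limma 3.58.1), the replicate number as a block, halved counts and leaving out each library. Some genes that this rule selects are counted but not reported here.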

Additional observations from a re-analysis of the deposited data

How the results depend on the processing

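Hbegf, Areg and Errfi1 kept their rise and their call in all 15 alternatives, with log2 fold changes of 0.80 to 0.87, 0.69 to 0.79 and 0.79 to 0.87, and no other member was called in any of them. Egfr, not called, had a log2 fold change of -0.0036 with library totals alone and -0.0072 to 0.094 when 1 library was left out, the lowest without shear replicate 3. That of Nrg2, at 3 to 12 counts, was 0.0018 with DESeq2 size factors, 0.0057 without the low-count filter, 0.0040 by DESeq2, 0.18 by limma-voom, 0.042 with the replicate block and -0.40 to 0.26 when 1 library was left out. With library totals alone 1124 genes were higher and 1730 lower, and with upper-quartile factors 1275 and 1364, against 1508 and 1075; the cause was not tested. The median log2 fold change of all genes was -0.062 with library totals alone, against -0.012. Same-numbered libraries did not deviate together (correlations -0.019 to -0.0005), and with the replicate number as a block 1372 genes were higher and 964 lower, with 3 members higher. Without 1 library, 1193 to 1469 genes were higher and 769 to 948 lower. Of the named pathway genes, Pik3r1, Sh3kbp1 and Etv1 lost their call in 3 alternatives each. Of the named cell type markers, Thbs4 lost its call in 6, Prg4 and Pdgfra in 4 each and Dcn in 3. The falls among the receptor turnover genes and the ERK-responsive transcripts, 1 each, numbered 2 each with upper-quartile factors, and 3 and 2 with library totals alone, where 1 shedding gene also fell; the turnover genes had 2 falls with the stricter filter (minimum count 50). At this depth Btc, Erbb3, Erbb4, Epgn, Nrg3 and Nrg4 could not be compared.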
